A study of Mus musculus with 2 samples.

Results

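The small leucine-rich proteoglycans are secreted matrix proteins, and 10 of their genes were described here: Dcn, Bgn, Lum, Fmod, Kera, Ogn, Epyc, Prelp, Omd and Aspn. They were chosen by gene name, not by any measured value, though earlier results of these data were known. All 10 were found among the 43346 gene rows of the tables. The tissue was limb from C57BL/6J mice, taken in the embryo at day 14.5, and its polyadenylated RNA above 200 nucleotides was sequenced in 2 strand-specific paired-end libraries. Each library is a pool of male and female littermates with no treatment named in the labels. The libraries form 1 group, so no conditions were compared. The labels name neither the limbs taken nor whether the pools came from separate litters, so intervals cover only how these samples differ, and part of that may be technical.

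Proteins of this family carry a curved core of leucine-rich repeats that binds collagen, and most members also carry chondroitin, dermatan or keratan sulfate chains. They sit on the surface of collagen fibrils, regulate how wide and how regular the fibrils become, and bind growth factors of the TGF-beta family. Class I holds decorin, biglycan and asporin, class II fibromodulin, lumican, PRELP, keratocan and osteomodulin, and class III epiphycan and osteoglycin. In the limb the family is known from tendon, cartilage, dermis and forming bone.

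The libraries held 110172148 and 103363136 estimated counts in gene rows, after spike-in, phiX and tRNA rows, 3.73% and 4.30% of all counts, were left out. The 10 genes together took 0.208% of the counts in replicate 1 (95% Wilson interval 0.207% to 0.209%) and 0.211% in replicate 2 (0.210% to 0.212%). These intervals cover counting error only. In TPM, which corrects reads for transcript length and for library size, the members summed to 1587 in each library. Limb markers were present: Hoxd13, a factor of the digits, had 90.7 and 122 TPM in replicates 1 and 2, and Prrx1, a factor of limb mesenchyme, 101.4 and 100.6 TPM. The markers Pax6, Aldh3a1, Krt12 and Cryaa of eye tissue, where lumican and keratocan are also known, were each under 1 TPM in both libraries. In a tissue pool, fewer cells of a type and less RNA per cell cannot be told apart.

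All 10 members exceeded 1 TPM in both libraries, 9 exceeded 10 TPM and 4 exceeded 100 TPM. Their median level was 87.7 TPM, against 5.84 TPM over all 21474 protein-coding genes and 19.4 TPM over the 13696 of these with a mean of at least 1 TPM. Lum, Bgn and Dcn made up 71.6% and 73.4% of the members' summed TPM in replicates 1 and 2. Class I summed to 798 and 809 TPM, class II to 611 and 632 TPM, and class III to 178 and 145 TPM in replicates 1 and 2. Class I therefore held 50.6% ± 0.504, class II 39.2% ± 0.951 and class III 10.2% ± 1.45 of the family's TPM (SD, n = 2). These levels rest on transcript lengths of the deposited GENCODE M4 models, and a shorter model gives a higher TPM. Compared with GENCODE M21, the main transcript was shorter for Lum (2075 against 2448 nucleotides) and Kera (1950 against 2280). It was longer for Dcn (1886 against 1758). Levels with M21 lengths were not computed.

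**Figure D1:**
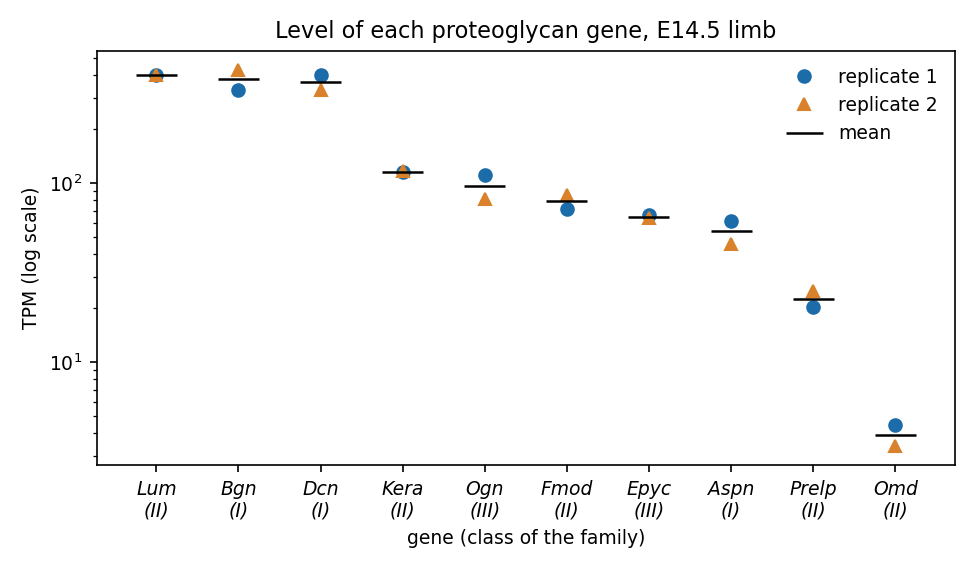
Level of each of the 10 genes in TPM on a logarithmic axis, with a circle for replicate 1, a triangle for replicate 2 and a bar for the mean; Roman numerals give the class. Lum, Bgn and Dcn lie together between 333 and 430 TPM, 5 genes lie between 45.8 and 117 TPM, and Prelp and Omd lie lower.

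Lumican of class II and biglycan and decorin of class I had the highest levels. Lum, a keratan sulfate proteoglycan that spaces collagen fibrils (ENSMUSG00000036446.4, chromosome 10, 97565128 to 97572703, plus strand), had 399 and 402 TPM in replicates 1 and 2, from 56206 and 51831 counts. It ranked 261 among the protein-coding genes, and the libraries differed by less than for any other member. Bgn, which lies alone on the X chromosome (ENSMUSG00000031375.13, 73483602 to 73495933, plus strand) and is known from bone and cartilage matrix, had 333 and 430 TPM, from 48486 and 63229 counts. Dcn, the decorin gene, whose product binds collagen fibrils and TGF-beta (ENSMUSG00000019929.11, chromosome 10, 97479609 to 97518143, plus strand), had 403 and 333 TPM, from 50999 and 38538 counts. The order of these genes was Dcn, Lum, Bgn in replicate 1 and Bgn, Lum, Dcn in replicate 2.

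Keratocan, osteoglycin, fibromodulin, epiphycan and asporin formed a middle group. Kera, best known from the cornea (ENSMUSG00000019932.7, chromosome 10, 97606879 to 97613692, plus strand), had 115 and 117 TPM in replicates 1 and 2. Ogn, the gene of osteoglycin or mimecan (ENSMUSG00000021390.5, chromosome 13, 49608046 to 49624501, plus strand), had 112 and 81.5 TPM. Fmod, a regulator of tendon collagen fibrils that shares a collagen site with lumican (ENSMUSG00000041559.7, chromosome 1, 134037254 to 134048277, plus strand), had 72.0 and 85.9 TPM. Replicate 1 was higher for Ogn and replicate 2 for Fmod, while Kera was near the same level in both. Epyc, a proteoglycan of growth plate cartilage (ENSMUSG00000019936.6, chromosome 10, 97644068 to 97682454, plus strand), had 66.3 and 63.8 TPM. Aspn, whose protein carries a run of aspartates in place of a sulfated chain (ENSMUSG00000021388.9, chromosome 13, 49544443 to 49567565, plus strand), had 61.7 and 45.8 TPM.

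Prelp and Omd were the lowest members. Prelp, whose product links basement membranes to the matrix below (ENSMUSG00000041577.5, chromosome 1, 133910304 to 133921414, minus strand), had 20.3 and 24.8 TPM in replicates 1 and 2, from 5149 and 5855 counts. Omd, the gene of osteomodulin, a keratan sulfate proteoglycan of mineralising bone (ENSMUSG00000048368.8, chromosome 13, 49582462 to 49592822, plus strand), had 4.46 and 3.38 TPM, from 454 and 314 counts. Lum exceeded Omd 89.6-fold and 119-fold by TPM in the 2 libraries. Omd stood at percentile 46.0 of all protein-coding genes, Prelp at 71.0 and the other 8 members between 86.0 and 98.8.

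Of the 45 pairs of members, 38 had a 95% interval of their difference that excluded 0, and all 38 kept their order in both libraries (limma on log2(TPM + 1), unadjusted for the number of pairs). Each interval adds the variances of both genes as if independent, although they were measured in the same libraries. It can thus be too narrow or too wide. Bgn over Ogn was 1.57 and 2.39 in replicates 1 and 2 (SE 0.24), and Ogn over Aspn 0.85 and 0.82 (SE 0.23). With intervals widened for 45 pairs, 31 excluded 0. Among the 9 pairs of neighbours in the order of levels, 3 did: Dcn exceeded Kera by 1.65 in log2 (SE 0.22, 95% interval 1.10 to 2.20), Aspn exceeded Prelp by 1.21 (SE 0.21, 0.69 to 1.73) and Prelp exceeded Omd by 2.26 (SE 0.19, 1.79 to 2.74). The widened interval of Aspn over Prelp held 0. These breaks divide the order into 4 runs of genes.

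Within the runs, neighbours were not resolved. Lum over Bgn had a log2 difference of 0.08 (95% interval -0.51 to 0.68) and Bgn over Dcn one of 0.05 (-0.57 to 0.66), and both pairs changed order between the libraries. In the middle group Kera over Ogn differed by 0.28 (-0.27 to 0.83), Ogn over Fmod by 0.27 (-0.28 to 0.83), Fmod over Epyc by 0.27 (-0.22 to 0.76) and Epyc over Aspn by 0.29 (-0.23 to 0.81). Ogn and Fmod changed order between the libraries, and the other 3 of these pairs did not. Among Lum, Bgn and Dcn 0 of 3 pairs had an interval that excluded 0. Of the 10 pairs in the middle group 6 did, namely Kera over Fmod, Epyc and Aspn, Ogn over Epyc and Aspn, and Fmod over Aspn. The widest gap was Kera over Aspn at 1.11 (SE 0.21, 0.58 to 1.64). With intervals widened for 45 pairs 0 of these 10 excluded 0, and with no filter on low values in the fit 2 did, Kera over Epyc and Kera over Aspn.

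**Figure D2:**
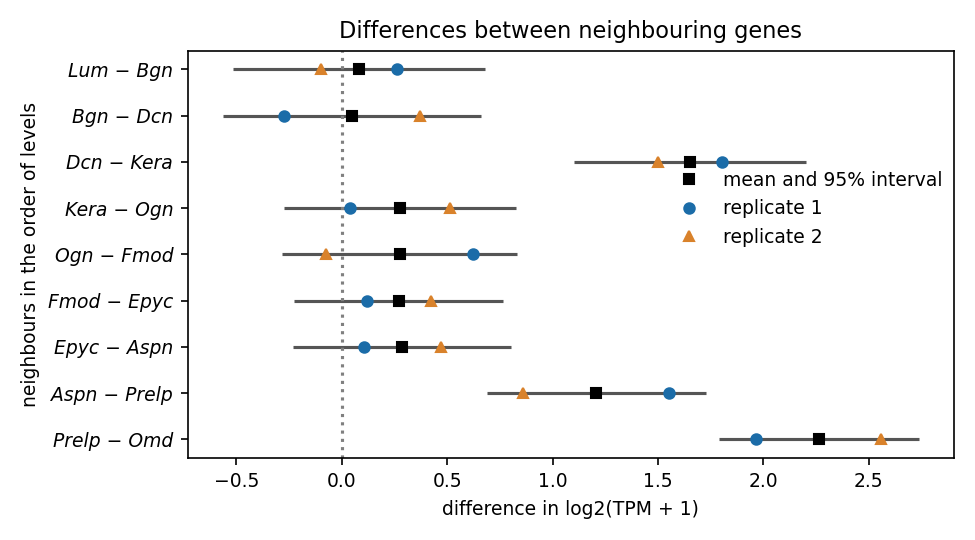
Difference in log2(TPM + 1) between neighbours in the order of levels; the square and line give the mean and its 95% interval, the circle and triangle the difference within replicates 1 and 2. The intervals of Dcn over Kera, Aspn over Prelp and Prelp over Omd lie to the right of 0, and the other 6 cross it.

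Between the libraries, 0 of the 10 members differed by more than 1.5-fold in TPM, while 11.6% of the 15055 genes averaging 1 TPM or more did. The count was also 0 in posterior mean TPM, a second estimate in the tables (background 11%), in counts scaled by TMM or DESeq2 factors (10% for each), at 2-fold in TPM (3.23%), and in TPM against genes averaging 10 TPM or more (8.63%) or with any count in both libraries (22.6%). With 1 library on each side this difference has no replicate check and no test. The median absolute log2 ratio of the members was 0.28, against 0.23 over those genes. The tables also give an interval of TPM within each library, whose level they do not name. It did not overlap between the libraries for 7 members, against 60.3% of genes. The 3 members whose intervals overlapped were Lum, Kera and Epyc.

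Members of the clusters on chromosomes 13 and 1 differed between the libraries in 1 direction each, while those on chromosome 10 had ratios of both signs. On chromosome 13, Ogn had a log2 ratio of replicate 2 over replicate 1 of -0.45, Aspn of -0.43 and Omd of -0.40. On chromosome 1, Prelp had 0.29 and Fmod 0.25. On chromosome 10, Dcn had -0.28, Epyc -0.06, Lum 0.01 and Kera 0.03, and Bgn on the X chromosome had 0.37. An absolute log2 ratio beyond 0.32 was found in 4 members, while 34.7% of genes had one. Of these, Bgn was higher in replicate 2, as were 16.9% of genes, and Ogn, Aspn and Omd were lower, as were 17.8% of genes.

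GC content moved with these ratios. The main transcripts of Bgn, Fmod and Prelp held 52.5% to 53.8% GC, and their log2 ratios were 0.25 to 0.37. The other 7 members held 34.3% to 42.8% GC, with ratios from -0.45 to 0.03. Across 9532 genes averaging 10 TPM or more, which share the same 2 libraries and are no replicates, the correlation of GC content with the log2 ratio was 0.42 (Pearson) or 0.50 (Spearman). The median ratio rose from -0.17 in genes of up to 40% GC to 0.36 in genes above 60% GC. After the median ratio of genes within 2 percentage points of GC was taken off, the members ranged from -0.20 for Ogn to 0.31 for Bgn, 0 of 10 lay beyond 0.32 (27.4% of genes did under the same adjustment), and Epyc turned from -0.06 to 0.14. The part of GC content in the library differences was not tested further.

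**Figure D3:**
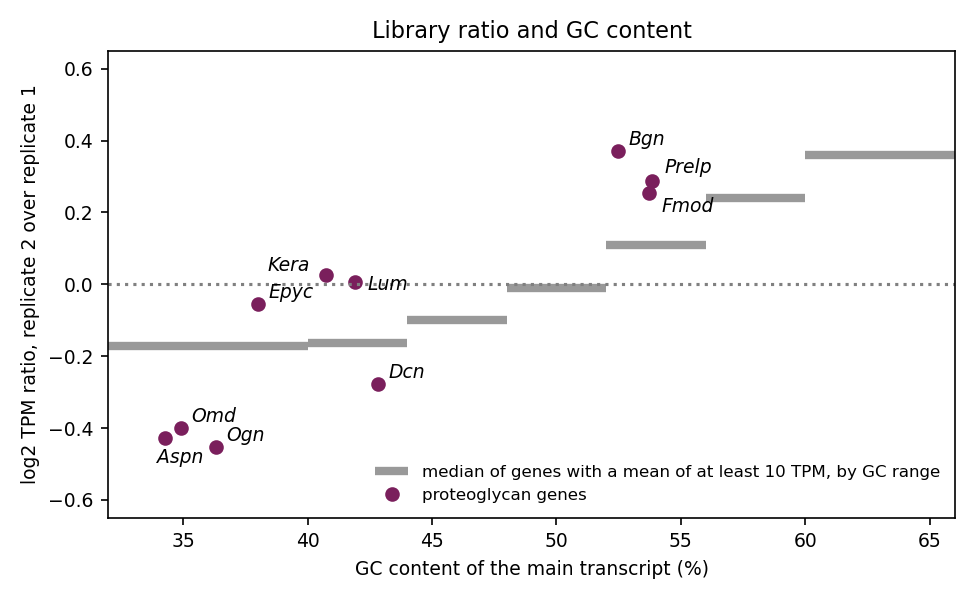
Log2 ratio of TPM, replicate 2 over replicate 1, against the GC content of each member's main transcript; grey bars give the median ratio in each GC range of all genes averaging 10 TPM or more. The grey bars rise from -0.17 to 0.36, and Bgn, Fmod and Prelp, at 52.5% to 53.8% GC, lie above 0.

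Markers of the tissues known to make these proteins also differed between the libraries. The 7 tendon markers summed to 570 and 659 TPM in replicates 1 and 2, led by Col12a1 and Scx at 261 ± 20.7 and 114 ± 31.8 TPM (SD, n = 2). The 7 cartilage markers summed to 2405 and 2829 TPM, led by Col2a1 and Matn1. The 7 fibroblast markers summed to 4433 and 4025 TPM, led by Col1a1 and Col1a2. Tendon and cartilage sums were thus higher in replicate 2 and the fibroblast sum lower, but no list moved as a whole. Of 7 genes in each list, 6 tendon, 6 cartilage and 2 fibroblast markers were higher in replicate 2. Against their sums went Tnmd of tendon (log2 ratio -0.45) and Col9a1 of cartilage (-0.12). In the fibroblast list Col1a1 (0.12) and Twist2 (0.46) did. The 6 osteoblast markers summed to 260 and 219 TPM but were also mixed. The bone matrix genes Ibsp (107 and 64.3 TPM in replicates 1 and 2) and Spp1 (85.1 and 64 TPM) were lower in replicate 2. Of the 5 osteoblast markers averaging 1 TPM or more, the other 3 were higher in replicate 2, and the median log2 ratio of these 5 was 0.35. Bglap, the osteocalcin gene, had 0.790 and 0.820 TPM. Their part in the members' library ratios was not tested.

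Of the 10 members, 9 lie in clusters on 3 chromosomes. The cluster on chromosome 10 spans 203 kb with Dcn, Lum, Kera and Epyc in this order on the plus strand, and it held 62.0% and 57.7% of the family's TPM in replicates 1 and 2. No other protein-coding gene of the annotation lies inside it. The nearest outside are Btg1, an antiproliferative factor, at 18.8 and 16.1 TPM, and Ccer1 with 0 counts in each library, a count that leaves room for 0.0272 and 0.0290 CPM, a count corrected for library size only. The noncoding 4930473O22Rik inside the cluster was not analysed here. Gm10754, whose exons share 1041 bases with the end of Epyc on the other strand, had 2 and 0 counts.

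The cluster on chromosome 13 spans 80.1 kb with Aspn, Omd and Ogn on the plus strand, and it held 11.2% and 8.24% of the family's TPM. Ecm2, a related matrix gene that precedes it, had 3.76 and 2.68 TPM. All 3 members lie inside Cenpp, a centromere protein gene on the minus strand with 7.95 and 4.36 TPM, whose annotated exons share 7 bases with Aspn and 0 with Omd and Ogn. The next protein-coding gene outward, Nol8 of the nucleolus, had 6.29 and 3.52 TPM. Each of these 6 genes was lower in replicate 2, and each had under 44% GC in its main transcript. Although they are neighbours, Ogn exceeded Omd by 4.30 in log2 (SE 0.21, 95% interval 3.76 to 4.84).

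Prelp and Fmod face opposite ways within 138 kb of chromosome 1, and they held 5.82% and 6.98% of the family's TPM. Fmod exceeded Prelp by 1.76 in log2 (SE 0.20, 95% interval 1.27 to 2.26). Beside Prelp lies Optc, the opticin gene of the same family, at 2.00 and 3.02 TPM, and beyond Fmod lies Btg2, a growth inhibitor, at 15.5 and 15.2 TPM. Between the members, Gm1627 had 7 and 0 counts and Gm18970 0 counts in both libraries. Gm15851, whose exons share 350 bases with Prelp on the other strand, had 5 and 1 counts. No source used here says whether the counting kept the strand of the reads, so counts of such overlapping pairs may be shared. Gene counts of Prelp and Epyc were whole to within 0.005 in both libraries, and sharing was not tested further. Around Bgn lie Haus7, of the mitotic spindle, at 40.5 and 32.4 TPM and Atp2b3, a calcium pump gene, at 0.660 and 0.630 TPM.

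**Figure D4:**
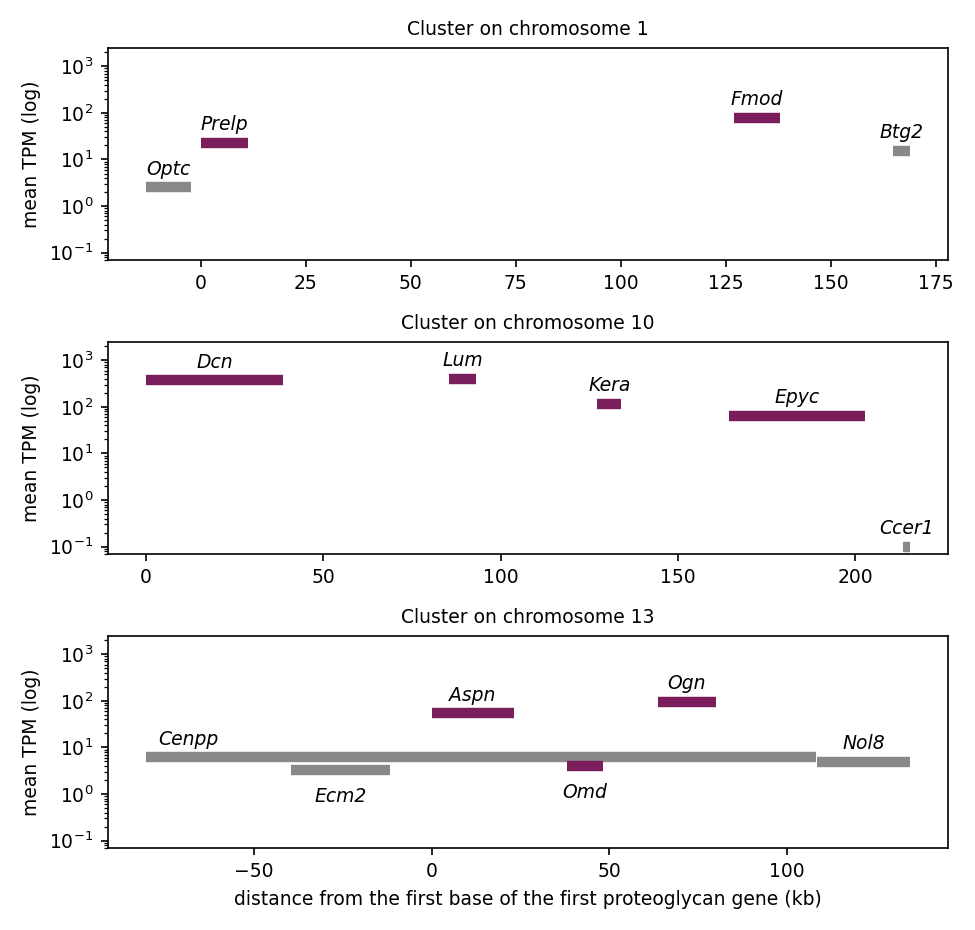
Mean TPM, on a logarithmic axis, of the protein-coding genes in and next to each cluster, drawn from gene start to gene end against the distance in kb from the first base of the first member; purple bars are members and grey bars other genes. Ccer1, with 0 counts, is drawn at 0.1, and Btg1 lies outside the chromosome 10 panel; Dcn, Lum, Kera and Epyc stand above Ccer1, and Omd stands below Aspn and Ogn.

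Most of the level of each member was assigned to 1 annotated transcript. Lum, Kera, Ogn and Omd have 1 transcript each in the tables. The main transcript held 99.5% ± 0.255 of the TPM of Fmod, 99.3% ± 0.198 of Dcn, 99.1% ± 0.785 of Prelp, 98.6% ± 0.389 of Epyc and 97.5% ± 1.59 of Aspn (SD, n = 2). Bgn differed, with 8 transcripts and a main share of 83.1% and 93.7% in replicates 1 and 2.

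The largest TPM of Bgn outside its main transcript was on a short one. The main transcript (ENSMUST00000033741.10, 2419 nucleotides, 8 exons) had 276 and 403 TPM. A processed transcript of 548 nucleotides and 2 exons near the end of the gene (ENSMUST00000183174.1) had 40.6 and 12.6 TPM, from 1063 and 284 counts. By counts the short transcript held 2.19% and 0.448% of the gene and by TPM 12.2% and 2.93%, since TPM divides by effective length. The effective length of the whole gene was 1943 and 2105 nucleotides in replicates 1 and 2. The log2 ratio of Bgn between the libraries was 0.37 in TPM and 0.50 in CPM with TMM factors. For the other 9 members these scales differed by less than 0.1.

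**Figure D5:**
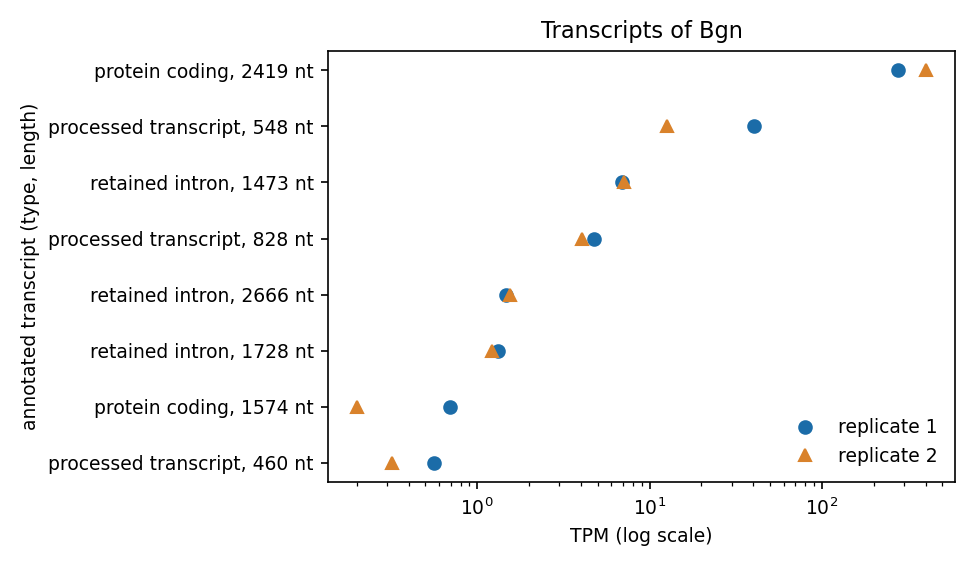
TPM of the 8 annotated transcripts of Bgn on a logarithmic axis, named by type and length, with a circle for replicate 1 and a triangle for replicate 2. The coding transcript of 2419 nucleotides is higher in replicate 2, and the processed transcript of 548 nucleotides falls from 40.6 to 12.6 TPM.

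Epyc has 2 annotated starts, and the upstream one held nearly all of its level. The transcript from the first start (ENSMUST00000020094.3) had 65.2 and 63.1 TPM, and that from the second (ENSMUST00000105285.3), inside the gene, had 1.11 and 0.720 TPM. The RefSeq start sites of the GRCm38.p6 build match these starts to 0 and 14 bases. RefSeq holds promoters for 8 of the 10 members, 9 windows in all, with none for Dcn and Lum in the table used. The 150 bases before each start are shown for Epyc, whose starts differ in use, for the genes of the chromosome 13 and chromosome 1 clusters, whose library ratios went in opposite directions, and for Bgn. Capitals mark each E-box, CANNTG, the site type of basic helix-loop-helix factors such as scleraxis. This pattern reads the same on both strands, and overlaps with other motifs were allowed.
Epyc main start, chr10:97643918-97644067, plus strand: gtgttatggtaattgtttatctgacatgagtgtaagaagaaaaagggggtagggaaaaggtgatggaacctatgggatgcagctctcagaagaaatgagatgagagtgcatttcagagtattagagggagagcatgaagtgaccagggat
Epyc second start, chr10:97646953-97647102, plus strand: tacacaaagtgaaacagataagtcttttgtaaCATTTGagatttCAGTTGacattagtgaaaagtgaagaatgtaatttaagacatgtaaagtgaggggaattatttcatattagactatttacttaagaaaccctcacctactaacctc
Aspn, chr13:49544293-49544442, plus strand: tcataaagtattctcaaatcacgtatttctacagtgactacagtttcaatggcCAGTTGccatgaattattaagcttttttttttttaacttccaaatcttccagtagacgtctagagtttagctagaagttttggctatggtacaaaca
Omd, chr13:49582312-49582461, plus strand: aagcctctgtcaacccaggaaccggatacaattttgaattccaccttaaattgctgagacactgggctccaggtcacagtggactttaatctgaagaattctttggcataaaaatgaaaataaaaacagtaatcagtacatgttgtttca
Ogn, chr13:49607865-49608014, plus strand: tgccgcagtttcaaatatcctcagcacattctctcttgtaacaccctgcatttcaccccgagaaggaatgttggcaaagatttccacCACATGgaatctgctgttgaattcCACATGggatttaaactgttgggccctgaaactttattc
Prelp, chr1:133921402-133921551, minus strand: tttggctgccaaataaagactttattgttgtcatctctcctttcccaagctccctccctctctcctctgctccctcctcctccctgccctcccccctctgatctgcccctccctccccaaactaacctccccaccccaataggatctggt
Fmod, chr1:134037104-134037253, plus strand: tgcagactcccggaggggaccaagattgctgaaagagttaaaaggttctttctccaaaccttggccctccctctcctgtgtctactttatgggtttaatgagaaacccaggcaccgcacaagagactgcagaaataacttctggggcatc
Bgn, chrX:73483451-73483600, plus strand: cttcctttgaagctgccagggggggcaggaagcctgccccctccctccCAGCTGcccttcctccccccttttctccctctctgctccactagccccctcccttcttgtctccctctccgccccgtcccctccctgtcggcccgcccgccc

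Transcript starts were read from GENCODE M21. There the main transcript starts 44 bases after the RefSeq start of Aspn, 304 after that of Omd and 31 after that of Ogn. The windows of these genes thus lie that far upstream of the M21 starts. For Prelp the main transcript starts 13 bases before. Starts of the deposited M4 models were not read, and model lengths differ from M21 for Aspn (2346 against 2310 nucleotides) and Ogn (2540 against 2566). The window of Kera, counted among the 9 but not shown, lies inside its M21 transcript, which starts 326 bases before the RefSeq start. The deposited Kera model was shorter than that of M21 (1950 against 2280 nucleotides), so its start is not known here. The window held 0 of the 4 motifs searched. An E-box occurred in 4 of the 9 windows, at -97 in Aspn, -102 in Bgn, -63 and -39 in Ogn, and -118 and -106 at the second start of Epyc, counted in bases from the start site to the first base of the motif. Of all 32851 promoter windows of this length, 47.7% held one. TATAAA on either strand occurred in 0 of the 9 windows and in 7.57% of all windows, GGGCGG on either strand in 1, that of Bgn, and in 28.6% of all, and TGANTCA in 0 and in 4.24%. The windows ranged in GC content from 30.7% at the second start of Epyc to 70.0% in Bgn, with a median of 54.0% over all windows. The windows of Aspn, Omd and Ogn held 33.3%, 38.0% and 44% GC, and those of Fmod and Prelp 49.3% and 56%.

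Further genes of the family and near relatives had a median of 12.8 TPM, against 87.7 TPM for the 10 members. Of these 8 genes, 7 reached 1 TPM in both libraries: Chadl and Chad, the chondroadherins of cartilage, had 54.5 ± 23.6 and 31.6 ± 10.1 TPM, Tsku, a secreted regulator of growth factors, 38.3 ± 7.96, Podn 20.9 ± 2.60, Podnl1 4.76 ± 1.02, Ecm2 3.22 ± 0.764 and Optc 2.51 ± 0.721 TPM (SD, n = 2). Nyx, the retinal nyctalopin gene, had 0.0900 TPM in both libraries. Of these 7, Chadl, Chad and Optc passed 1.5-fold between the libraries, each higher in replicate 2, where 11.6% of all genes passed.

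Genes that build and sulfate the chains, and genes that sulfate tyrosines, were present. All 6 genes of the chain linkage reached 1 TPM in both libraries, led by B3gat3 at 83.8 ± 10.8 and Xylt2, which adds the first sugar, at 38.3 ± 6.92 TPM (SD, n = 2). Of 16 genes of chondroitin and dermatan sulfate 15 did, led by Chpf at 104 ± 24.1 and by Chst14, a dermatan sulfotransferase, at 54.9 ± 7.74 TPM. All 6 genes of keratan sulfate did, led by B4galt1 at 31.9 ± 2.74 and Chst1 at 15.1 ± 3.56 TPM, and so did the tyrosine sulfotransferases Tpst1 at 52.4 ± 5.60 TPM (SD, n = 2) and Tpst2 at 30.4 and 33.6 TPM in replicates 1 and 2. Of these 30 genes 29 averaged 1 TPM or more, of which 0 passed 1.5-fold between the libraries (background 11.6%) and 25 were higher in replicate 2, as were 52.8% of all genes averaging 1 TPM or more and 68.1% of those above 50% GC. Their median GC content ran from 51.4% to 56% by list, above that of 7 of the 10 members.

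Partners of the proteoglycans in the matrix included genes with a higher level than any of the members. The 12 collagen genes of the list all exceeded 1 TPM and had a median of 291 TPM. The highest were Col2a1 of cartilage at 1496 ± 179 and Col1a1 at 1232 ± 71.9 TPM (SD, n = 2). Of 10 proteases and enhancers, 10 exceeded 1 TPM, led by Mmp14 and Mmp2 at 303 ± 14.5 and 269 ± 35.2 TPM. Of 6 growth factors and signals bound by the family, all 6 did, with Tgfb3 at 70.9 ± 0.431 and Bmp4 at 30.7 ± 4.19 TPM (SD, n = 2). In the collagens 0 of 12, in the growth factors 0 of 6 and in the proteases 1 of 10 passed 1.5-fold between the libraries, against 11.6% of all genes. The 1 protease was Mmp13, a collagenase, at 2.97 and 1.37 TPM, chosen after its values were seen.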

How the data were processed

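Gene and transcript tables of 2 limb libraries were used as the authors deposited them, on mm10 and GENCODE M4, per the text file beside them; no source used here names the program. Per the file headers the authors' tables hold expected counts (estimated reads per feature), TPM with its interval bounds (used as a score), posterior mean TPM, effective length and, for transcripts, the percent of the gene. Names, positions and GC content were taken from GENCODE M21 on GRCm38, which is mm10, joined by stable identifier, so GC is that of the M21 version of a transcript. Promoters came from RefSeq.

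The pair differences used an intercept-only fit in limma 3.58.1 (R 4.3.3) of log2(TPM + 1) with eBayes and trend over the 15055 genes averaging 1 TPM or more, which borrows the spread of all genes because 2 libraries give little of their own. TMM factors (edgeR 4.0.16) were 1.01 and 0.993; DESeq2 1.42.0 size factors were an alternative. Expected counts were rounded for the size factors. The floor of a 0 was 3 counts. The fit and the fold counts were run on simulated data with independent genes and no GC effect between the libraries. There 95% of pair intervals held the true difference, and 1.62% of unchanged genes passed 1.5-fold. In the real data 11.6% of genes passed, so the simulated libraries differed less and this coverage cannot be carried over. Fragment length shifts TPM: effective lengths fell short of full lengths by 199 nucleotides in replicate 1 and 226 in replicate 2. Gene counts of all 10 members were whole to within 0.005.

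The members and lists were chosen with earlier results of these data known. The text names all members, relatives, cluster neighbours, the 2 highest of each list and list genes under 1 TPM in both libraries, except 1 marker that is not reported here; no gene was named for a similar pattern, since 1 group has none. Marker lists without values in the text (muscle, led by Actc1 and Mylpf; epidermis, by Krt5 and Krt14; blood, by Hba-a2 and Hbb-bs; endothelium, by Cdh5 and Pecam1) summed to 3084, 991, 20263 and 140 TPM in replicate 1 and to 2569, 677, 20907 and 132 TPM in replicate 2.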

Additional observations from a re-analysis of the deposited data

How the results depend on the processing

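No paired analysis was possible because the samples form 1 group. The count of 38 pairs of members whose interval excluded 0 was 37 with a pseudocount of 0.1, 38 with posterior mean TPM, 34 with no filter on low values and 31 with intervals widened for 45 pairs. All 38 pairs kept their order in each library alone, where no test is possible. The widened interval lost 1 of the 3 separated neighbour pairs, Aspn over Prelp. The count of members beyond 1.5-fold between the libraries was 0 in TPM, posterior mean TPM and counts scaled by TMM or DESeq2, at either filter and at 2-fold. It was 4 at the lower threshold of 0.32 in log2 and, counted by the authors' intervals not overlapping, 7. That count and the removal of GC were chosen after seeing the data. A ratio cannot be had without either library. The members' share was 0.209% ± 0.00185 of gene counts (SD, n = 2), 0.201% of all counts with spike-in, phiX and tRNA rows kept, and 0.159% of TPM; the first alternative divides by more counts and the second by length. Without either replicate it was 0.208% to 0.211%. With posterior mean TPM or coding transcripts only, levels moved by more than 1 SD in 1 of 20 cases: Lum, whose libraries are nearly equal, had 397 by posterior mean TPM. Bgn moved further but within its SD of 69.0. It went from 382 to 340 TPM with coding transcripts only, below Dcn at 368 TPM. Omd rests on 454 and 314 counts, the smallest depth of any member.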
